A study of Mus musculus with 8 samples.

Results

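The 72 genes described here carry names of the gene families by which cells read extracellular signals through G protein-coupled receptors (GPCRs). These families are receptors, heterotrimeric G protein subunits, regulators of G protein signalling (RGS), arrestins and receptor kinases. They also include adenylyl and guanylyl cyclases, cyclic nucleotide phosphodiesterases (PDEs) and subunits of the cAMP-dependent kinase PKA. Of the 72 genes, 10 carry such a name but are not known as parts of G protein signalling. The 72 genes were picked by name, as all protein-coding genes of the deposited bulk RNA-Seq table whose symbols begin with the family prefixes of these proteins. They make up 72 of the 8278 genes in that table. The choice was made with earlier results of these data known. By role, 20 were orphan or adhesion receptors or genes named like them, 11 receptors with a known ligand, 6 α subunits and 6 genes named as β or γ subunits. The others were 3 RGS proteins, 4 arrestins and receptor kinases, 8 cyclases, 10 genes named as PDEs and 4 PKA subunits. The same prefixes match 262 protein-coding genes in the GENCODE M21 annotation, so most of these families lay outside the table, and their levels were not known here.

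MCECs are an established mouse cardiac endothelial cell line. The 4 *Hdac3* KO libraries came from MCECs transduced with a lentivirus that carries Cas9 and a guide against *Hdac3*, the gene of histone deacetylase 3, and the 4 EV libraries from MCECs transduced with the empty vector. Lentiviral transduction was thus shared by both groups, and the sources used here do not say whether the KO cells were 1 clone or a pool. The study counts its samples as biological in general terms and speaks of technical replicates for in vitro work, and neither statement says whether the libraries of a group came from separate cultures. If they did not, the p-values measure only the spread between these samples, which may be technical.

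The libraries held between 15775327 and 22255684 reads. *Hdac3* itself had 2058 ± 84.9 normalized counts in EV and 1513 ± 40.8 in KO MCECs (SD, n = 4 each), a log2 fold change of -0.45, so its transcript was lower in every KO library but far from absent. The paper verified the deletion in KO MCECs at the protein level, by western blot, and the transcript level is not a measure of the protein. Among 15 endothelial markers 6 were in the table, 5 called lower and 1 called higher, with a summed FPKM (fragments per kilobase of gene length, scaled to the library total) of 118.2 to 121.0 in EV and 90.2 to 92.7 in KO libraries. *Cd34* held most of this sum, at 94.3 FPKM in EV and 70.8 FPKM in KO MCECs. The 5 lower genes had log2 fold changes of -1.41 for *Tek*, -1.20 for *Kdr*, -0.30 for *Cd34*, -0.26 for *Flt1* and -0.16 for *Eng*. *Pecam1*, a defining endothelial gene and the 1 called higher, was near 0 with mean normalized counts of 0.518 in EV and 3.99 in KO MCECs. *Cdh5*, *Tie1*, *Emcn*, *Erg*, *Nos3*, *Cldn5*, *Plvap*, *Esam* and *Vwf* were outside the table. Of 9 fibroblast and mural markers 6 were listed, 5 lower and 1 higher, with a summed FPKM of 752 to 772 in EV and 541 to 557 in KO libraries. That sum was carried by *Col1a1*, which was higher (373 FPKM in EV and 404 FPKM in KO MCECs), and *Dcn*. The median log2 fold change of the 6 genes was -1.71, with -2.29 for *Pdgfrb*, -2.25 for *Tagln*, -1.99 for *Acta2*, -1.42 for *Pdgfra*, -1.21 for *Dcn* and 0.23 for *Col1a1*. None of 6 cardiomyocyte markers was listed, and *Cd68* was the 1 listed of 4 leukocyte markers, at a summed FPKM of 5.36 to 5.89 in EV and 11.1 to 12.5 in KO libraries. The marker counts stand against a background of 49.6% of all listed genes called lower and 47.1% called higher. The part of these marker differences in the results below was not tested, and in bulk RNA fewer cells of a type and less RNA per cell cannot be told apart.

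As background, a ligand-bound GPCR loads GTP onto a Gα subunit, which parts from its βγ partner. Gs and Gi proteins raise and lower adenylyl cyclase activity, Gq proteins act on phospholipase C and the G12/13 proteins on RhoA. RGS proteins speed the return of Gα to its GDP form, receptor kinases and arrestins switch the receptor off, PDEs break down cAMP and cGMP, and soluble guanylyl cyclase makes cGMP in answer to nitric oxide. In endothelium these routes are known for control of barrier function, vascular tone and responses to thrombin, adenosine, prostaglandins and sphingosine-1-phosphate (S1P).

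Across the 72 members, 47 were lower and 24 higher in *Hdac3* KO than in EV MCECs at an adjusted p under 0.01 (edgeR quasi-likelihood test), and 1, *Gpr89*, was not called (adjusted p = 0.0188). The whole table is a selection made by the authors on this same contrast, with an adjusted p-value under 0.05 for every gene, so that 96.7% of all listed genes were called, 49.6% lower and 47.1% higher. Each member had therefore passed that selection, and the counts are a description of the listed genes. The median log2 fold change of the members was -0.29, against 0.06 over all listed genes, and the median size of the change was 0.52 against 0.40. Groups did not overlap for 65 members, 44 of them lower and 21 higher, in a table where 91.1% of genes had groups that did not overlap. A log2 change of at least 1 was seen in 10 members that were lower and 7 that were higher, where 8.36% and 4.43% of all listed genes reached it. 5 of those 7 had fewer than 50 reads in the 4 EV libraries together. All but 3 members (*Gpr62*, *Gpr132* and *Pde8a*) had at least 10 counts in at least 4 libraries.

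Scaling changed some of the increases. When libraries were scaled by their total reads alone, the median of all genes moved by -0.117 on the log2 scale. The members were then called lower 47 times and higher 17 times, with a median of -0.41 against -0.06 over all listed genes. The 7 increases lost in this way were those of *Gna12*, *Gng12*, *Prkar1a*, *Arrb2*, *Grk6*, *Adcy6* and *Gpr15*, and no member changed sign. Of these, *Gpr15* kept most of its fitted log2 fold change (0.83 with TMM factors and 0.71 with totals). TMM factors assume that most genes are unchanged, and here they came from genes all selected as changed. Which scaling is nearer to the true levels was not tested. Shares of a family within a library, given below, do not depend on the scaling. FPKM values carry the scaling by totals, so a difference in FPKM between groups holds this shift of -0.117 as well, summed levels and marker sums included.

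**Figure D1:**
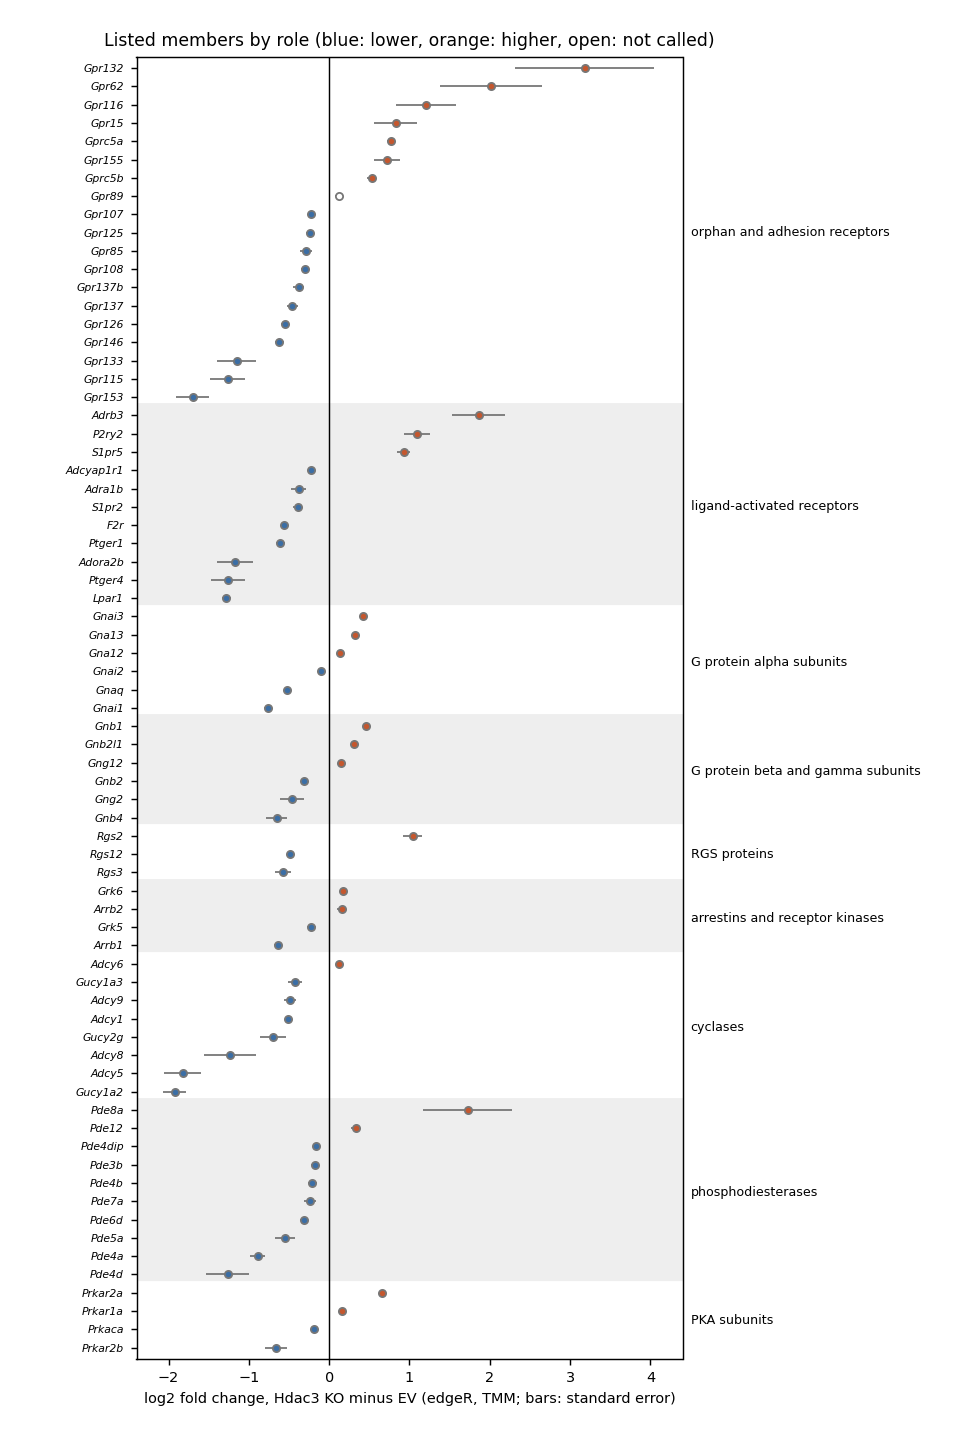
Log2 fold change (*Hdac3* KO minus EV, x axis) of 71 of the 72 members (y axis), grouped by role, with points in blue for lower, orange for higher and open for not called, and bars for the standard error. Most points lie left of 0 among cyclases, phosphodiesterases and receptors, while the α and β/γ subunits lie on both sides.

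Among the 11 receptors with a known ligand, 8 were lower and 3 higher. *Lpar1* encodes a receptor for lysophosphatidic acid and lies on chromosome 4 (58435255 to 58553898, minus strand, mm10). Its normalized counts were 595, 621, 604 and 644 in the EV libraries and 247, 238, 256 and 275 in the KO libraries. Every KO library lay below every EV library, with a log2 fold change of -1.28 ± 0.06 (SE; edgeR adjusted p = 1.18e-19). Its level per length was 9.25 FPKM in EV and 3.52 FPKM in KO MCECs, and under scaling by totals the log2 fold change was -1.40.

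A pair of Gs-coupled receptors, for prostaglandin E2 and adenosine, changed by similar amounts at much lower levels. *Ptger4*, the EP4 receptor gene, had normalized counts of 40.3, 52.2, 38.7 and 39.9 in EV and 19.99, 16.5, 14.1 and 20.6 in KO MCECs. *Adora2b*, the adenosine A2B receptor gene, had 41.5, 44.4, 49.1 and 37.2 in EV and 14.7, 11.9, 21.7 and 27.2 in KO MCECs. The groups did not overlap for either gene, and the log2 fold changes were -1.26 ± 0.21 and -1.17 ± 0.22 (edgeR adjusted p = 2.21e-06 and 1.42e-05). Exons of another gene on the opposite strand cover 16.5% of the exonic bases of *Ptger4*, and counting was not stated to use strand.

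*F2r* was the most abundant of the listed receptors with a known ligand, at 52.7 ± 1.0 FPKM in EV and 32.8 ± 0.8 FPKM in KO MCECs. It encodes PAR1, the receptor that thrombin cleaves. In normalized counts it measured 3351, 3247, 3241 and 3257 against 2172, 2153, 2232 and 2280. The gap between groups was many times the spread within them, and the log2 fold change was -0.57 ± 0.03 (edgeR adjusted p = 1.58e-18). *Ptger1*, the EP1 receptor gene, was also called lower, but its counts are uncertain, because exons on the opposite strand cover much of it and counting was not stated to use strand. The remaining decreases were those of *S1pr2* (-0.39), the adrenoceptor gene *Adra1b* (-0.38) and the PACAP receptor gene *Adcyap1r1* (-0.23), as log2 fold changes.

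The listed S1P receptors moved in opposite directions. *S1pr5*, whose product couples to Gi and G12/13 proteins, had 148, 150, 144 and 158 normalized counts in EV and 316, 281, 285 and 264 in KO MCECs. *S1pr2*, whose product couples mainly to G12/13 proteins, had 577, 586, 616 and 644 against 469, 485, 440 and 459. The 4 KO libraries were all above the EV range for *S1pr5* and all below it for *S1pr2*, with log2 fold changes of 0.93 ± 0.08 and -0.39 ± 0.05 (edgeR adjusted p = 3.27e-12 and 6.29e-08). Of the FPKM summed over this pair, *S1pr5* made up 21.8% ± 0.7 in EV and 41.0% ± 1.9 in KO MCECs (SD, n = 4). *S1pr2* remained the larger of the pair in every library.

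Both listed S1P receptor genes lie on chromosome 9 on the minus strand, and their promoters are shown because the receptors moved apart. The sequences are RefSeq promoters of the GRCm38.p6 build, from 250 bases before to 50 bases after a transcription start, printed in the direction of transcription. Capitals mark the core of the cAMP response element, TGACG on either strand, including the full palindrome TGACGTCA, which holds the core on both strands. The window of *S1pr2* is chr9:20976744-20977043 and holds the full palindrome. The window of *S1pr5* is chr9:21248394-21248693 and holds no match.
S1pr2: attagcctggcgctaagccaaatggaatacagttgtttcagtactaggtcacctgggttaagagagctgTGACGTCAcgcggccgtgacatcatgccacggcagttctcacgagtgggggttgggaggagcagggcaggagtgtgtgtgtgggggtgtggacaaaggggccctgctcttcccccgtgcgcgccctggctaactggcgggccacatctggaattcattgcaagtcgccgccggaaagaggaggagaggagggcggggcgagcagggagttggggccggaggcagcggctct
S1pr5: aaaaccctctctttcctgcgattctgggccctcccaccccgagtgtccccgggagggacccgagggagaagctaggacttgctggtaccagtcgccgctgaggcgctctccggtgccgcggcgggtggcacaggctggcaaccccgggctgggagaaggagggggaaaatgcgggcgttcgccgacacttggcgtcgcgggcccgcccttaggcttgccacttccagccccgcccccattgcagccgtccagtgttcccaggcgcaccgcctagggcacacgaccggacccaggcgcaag

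Of the 72 members, 58 had at least 1 promoter in the RefSeq table and 14 had none. The full palindrome stood in a promoter of 2 of the 58, *S1pr2* and the PKA subunit gene *Prkar1a*, which is 3.45%, against 3.68% of the 6382 listed genes with a promoter. The core stood in 22 of the 58 (37.9%), against 36.7% of the 6382. A match to these letters is a description of the sequence and not evidence of binding.

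*P2ry2* encodes the receptor for ATP and UTP that couples to Gq. It had normalized counts of 41.5, 42.2, 34.5 and 28.4 in EV and 76.8, 84.2, 74.4 and 73.1 in KO MCECs. All KO libraries were above all EV libraries, and the log2 fold change was 1.09 ± 0.16 (edgeR adjusted p = 1.52e-07). *Adrb3*, the β3-adrenoceptor gene, had 2, 3, 11 and 12 raw reads in EV and 22, 34, 33 and 23 in KO libraries. It was called higher from these few reads (edgeR adjusted p = 4.04e-06), and exons on the opposite strand cover 24.9% of its exonic bases.

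**Figure D2:**
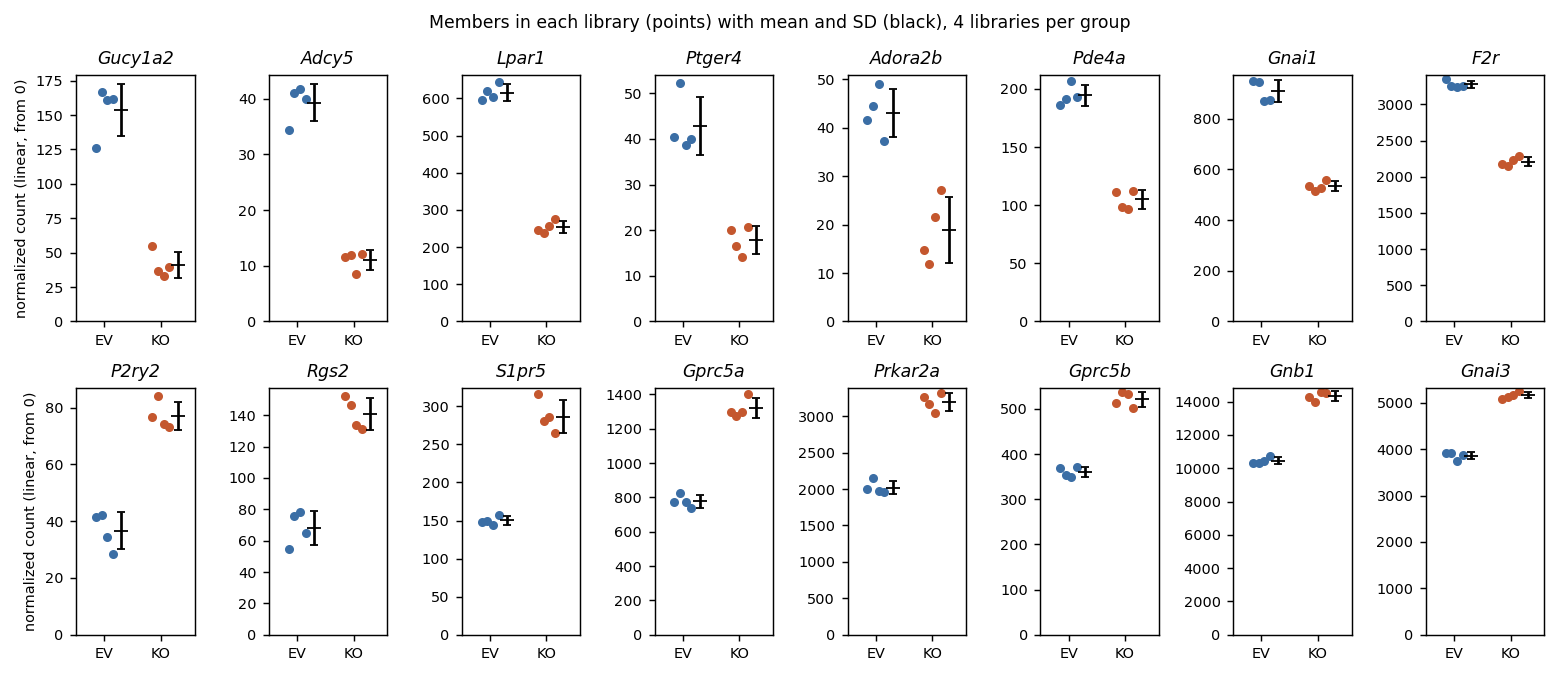
Normalized counts (y axes, linear from 0) of 16 members in each EV (blue) and *Hdac3* KO (orange) library, with the mean and SD of 4 libraries in black. The upper row shows 8 genes that were lower in KO MCECs and the lower row 8 that were higher, with no overlap between groups in any panel.

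Of the 20 orphan and adhesion receptors and genes named like them, 12 were lower, 7 higher and 1 was not called. *Gpr153*, an orphan receptor gene, had normalized counts of 48.7, 51.1, 60.6 and 57.6 in EV and 10.5, 16.5, 17.9 and 21.6 in KO MCECs. *Gpr115* (now *Adgrf4*), an adhesion receptor gene, had 74.8, 61.1, 41.8 and 63.9 against 21.0, 13.7, 39.5 and 25.3. *Gpr133* (now *Adgrd1*), an adhesion receptor gene whose product couples to Gs, had 32.0, 31.1, 26.1 and 31.0 against 16.8, 12.8, 15.1 and 9.38. These were the largest decreases of the class, with log2 fold changes of -1.70 ± 0.21, -1.27 ± 0.22 and -1.15 ± 0.24 (edgeR adjusted p = 4.18e-09, 3.70e-06 and 6.08e-05). For *Gpr115* the groups were separated only narrowly, by EV replicate 3 and KO replicate 3.

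Better expressed members of the class fell less. *Gpr146* changed by a log2 fold change of -0.62, *Gpr126* (now *Adgrg6*), an adhesion receptor gene, by -0.55, and *Gpr125* (now *Adgra3*) by -0.24. *Gpr137*, *Gpr137b*, *Gpr108* and *Gpr107*, whose products are membrane proteins of lysosomes or the Golgi rather than known G protein-coupled receptors, were lower by log2 fold changes between -0.46 and -0.22. *Gpr137b* has a near-identical pseudogene, so its counts are uncertain. *Gpr85* was lower by -0.28.

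*Gprc5a*, a class C orphan receptor gene induced by retinoic acid, was the most abundant of the class at 19.8 FPKM in EV and 31.1 FPKM in KO MCECs. Its normalized counts were 773, 825, 774 and 736 in EV and 1298, 1276, 1298 and 1404 in KO libraries, a log2 fold change of 0.77 ± 0.04 (edgeR adjusted p = 1.18e-17). Its relative *Gprc5b* rose as well, from 370, 353, 349 and 371 to 513, 537, 532 and 503, a log2 fold change of 0.53 ± 0.06. For both genes the lowest KO library was well above the highest EV library, although exons of *Iqck* on the opposite strand cover 13.1% of the exonic bases of *Gprc5b*. *Gpr155*, the gene of a lysosomal cholesterol sensor, had 45.1, 38.9, 50.1 and 35.5 normalized counts in EV and 65.2, 80.5, 71.6 and 59.1 in KO MCECs (log2 fold change of 0.72 ± 0.16).

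The α subunits were 3 lower and 3 higher. *Gnai1* had 948, 945, 868 and 875 normalized counts in EV and 533, 516, 525 and 560 in KO MCECs. *Gnai3* had 3920, 3909, 3750 and 3864 against 5090, 5133, 5158 and 5246. Both encode inhibitory α subunits, and they moved apart without overlap, with log2 fold changes of -0.77 ± 0.05 and 0.42 ± 0.03 (edgeR adjusted p = 2.92e-16 and 4.30e-16). *Gnai2* was the most abundant of the listed α subunit genes, at 193 FPKM in EV and 166 FPKM in KO MCECs. It measured 7946, 7741, 7954 and 8017 against 7379, 7244, 7464 and 7364 normalized counts, a log2 fold change of -0.10 ± 0.03. As shares of the FPKM of the 3 inhibitory subunits, *Gnai3* went from 23.2% ± 0.5 to 30.8% ± 0.3, *Gnai2* from 71.2% ± 0.7 to 65.9% ± 0.4 and *Gnai1* from 5.58% ± 0.27 to 3.26% ± 0.10. The order *Gnai2*, *Gnai3*, *Gnai1* held in all 8 libraries, and none of the 3 shares overlapped between groups.

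*Gnaq*, the Gq α subunit gene, had a log2 fold change of -0.53 ± 0.03. *Gna13* had normalized counts of 1591, 1777, 1690 and 1619 in EV and 2085, 2041, 2037 and 2187 in KO MCECs, a log2 fold change of 0.32 ± 0.04 (edgeR adjusted p = 5.35e-10). Its relative *Gna12* had 1968, 2150, 2098 and 2075 against 2404, 2220, 2208 and 2245, a log2 fold change of 0.13 that was 0.01 when libraries were scaled by totals (adjusted p = 0.744). *Gna13* made up 30.9% ± 0.5 of the pair's FPKM in EV and 33.8% ± 1.1 in KO MCECs.

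Among the listed β subunits the leading gene changed. *Gnb1* had 10321, 10324, 10442 and 10741 normalized counts in EV and 14304, 13953, 14569 and 14513 in KO libraries. *Gnb2* had 7598, 7916, 7773 and 7707 against 6430, 6117, 6169 and 6261. The log2 fold changes were 0.45 ± 0.02 and -0.31 ± 0.03 (edgeR adjusted p = 5.52e-18 and 4.37e-13). Per length, *Gnb2* was the larger in every EV library, with 55.5% ± 0.7 of the FPKM of the 3 listed β subunits, and *Gnb1* in every KO library, with 57.5% ± 0.6. *Gnb4*, at 0.256% in EV and 0.154% in KO MCECs, was lower by a log2 fold change of -0.66.

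Of the γ subunits, *Gng12* had normalized counts of 4073, 4215, 3957 and 3965 in EV and 4499, 4367, 4401 and 4674 in KO MCECs, a log2 fold change of 0.15 that fell to 0.03 under scaling by totals (adjusted p = 0.331). *Gng2*, with opposite-strand exons over 20.4% of its exonic bases, had overlapping groups and a log2 fold change of -0.46. *Gnb2l1* (now *Rack1*) is a ribosomal scaffold gene that the pattern took in by its older name. It was the most abundant member, at 247 FPKM in EV and 282 FPKM in KO MCECs, with 20744, 19947, 20950 and 21210 normalized counts against 25765, 24745, 25901 and 26031 (log2 fold change of 0.31).

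**Figure D3:**
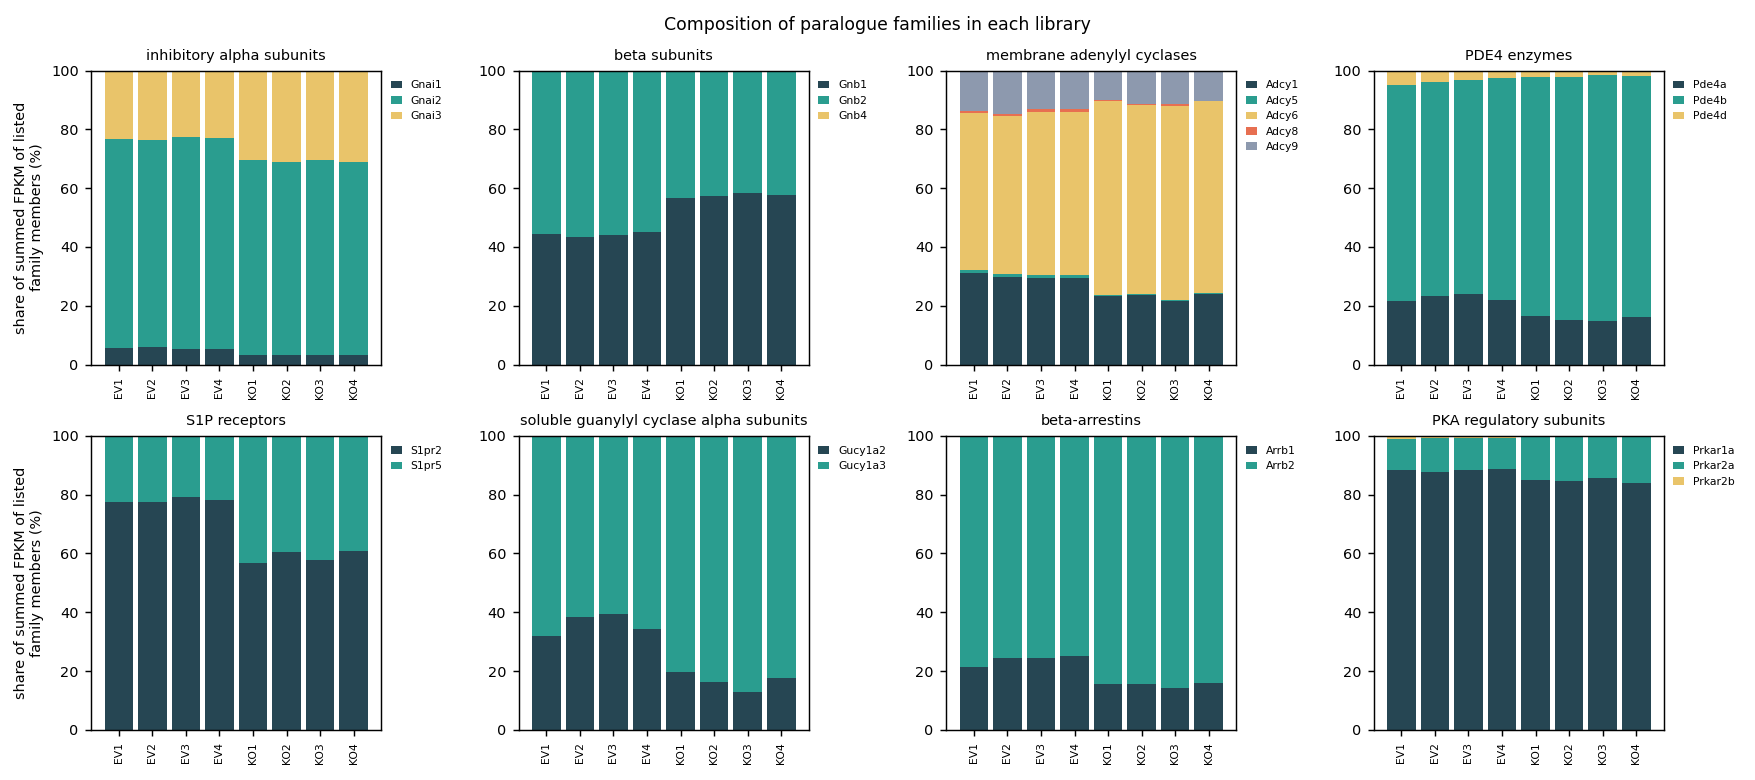
Share of the FPKM summed over the listed members of 8 paralogue families (y axes, percent, stacked from 0) that each gene made up in each of the 4 EV and 4 *Hdac3* KO libraries. The share of *Gnb1* is below 50% in the EV libraries and above it in the KO libraries, and the share of *S1pr5* rises from 21.8% to 41.0%.

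All 3 listed RGS genes were called, 2 lower and 1 higher. *Rgs2*, the product of which acts mainly on Gq, had normalized counts of 54.6, 75.5, 78.4 and 64.7 in EV and 153, 146, 134 and 131 in KO MCECs. *Rgs12*, the most abundant of the 3, had 915, 900, 904 and 922 against 681, 660, 676 and 593. *Rgs3* had 205, 200, 176 and 190 against 145, 128, 127 and 116. The groups were apart for each gene, with log2 fold changes of 1.04 ± 0.12, -0.48 ± 0.05 and -0.58 ± 0.10 (edgeR adjusted p = 1.77e-09, 2.20e-11 and 1.46e-06). *Rgs2* made up 9.83% ± 1.56 of the FPKM of the 3 genes in EV and 24.1% ± 1.0 in KO MCECs.

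*Rgs2* is a known target of CREB, the factor that binds the cAMP response element, and its promoter is shown for that reason. The window is chr1:144004100-144004399 on the minus strand (RefSeq, GRCm38.p6), printed as above, and it holds 2 copies of the core, in opposite orientations.
Rgs2: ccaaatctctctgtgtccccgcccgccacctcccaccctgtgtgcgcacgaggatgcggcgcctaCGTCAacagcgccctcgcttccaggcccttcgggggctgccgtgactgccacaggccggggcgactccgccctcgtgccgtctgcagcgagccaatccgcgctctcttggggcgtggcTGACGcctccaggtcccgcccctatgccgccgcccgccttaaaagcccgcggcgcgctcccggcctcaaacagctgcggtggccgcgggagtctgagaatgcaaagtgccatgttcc

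Arrestins and receptor kinases were 2 lower and 2 higher, and 2 lower and 0 higher under scaling by totals. *Arrb1*, the β-arrestin 1 gene, had 685, 734, 659 and 736 normalized counts in EV and 455, 461, 444 and 454 in KO MCECs. It was lower by a log2 fold change of -0.64 ± 0.05 (edgeR adjusted p = 3.75e-13) with no overlap. *Arrb2* had 647, 585, 531 and 570 against 638, 650, 689 and 613, with overlapping groups and a log2 fold change of 0.16. Its call was lost when EV replicate 2, 3 or 4 or KO replicate 2 or 3 was left out (adjusted p between 0.0123 and 0.0606) and under scaling by totals (adjusted p = 0.523). *Arrb1* made up 23.9% ± 1.6 of the pair's FPKM in EV and 15.4% ± 0.8 in KO MCECs.

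The receptor kinase gene *Grk5* had a log2 fold change of -0.22. *Grk6*, the more abundant of the listed kinases, had 1415, 1346, 1521 and 1493 normalized counts in EV and 1536, 1683, 1652 and 1643 in KO MCECs. Its log2 fold change of 0.17 became 0.06 under scaling by totals (adjusted p = 0.181). *Grk5* made up 36.3% ± 2.2 of the FPKM of the pair in EV and 30.2% ± 1.4 in KO MCECs, without overlap.

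Among the 8 cyclase genes 7 were lower and 1 higher. *Gucy1a2*, the α2 subunit gene of the nitric oxide-sensing soluble guanylyl cyclase (chromosome 9, 3532354 to 3897342, plus strand, mm10), showed the largest decrease of all members. It had 126, 167, 161 and 161 normalized counts in EV and 54.7, 36.6, 33.0 and 39.4 in KO MCECs. The highest KO library stayed below the lowest EV library by more than the range of the KO group, and the log2 fold change was -1.93 ± 0.14 (edgeR adjusted p = 2.11e-14). *Gucy1a3* (now *Gucy1a1*), the α1 subunit gene, was lower by -0.42 ± 0.09. In EV MCECs *Gucy1a2* made up 36.0% ± 3.6 of the FPKM of both α subunits, and in KO MCECs 16.6% ± 2.8. *Gucy2g*, the gene of a membrane guanylyl cyclase, had 62.9, 56.6, 66.9 and 63.0 against 41.0, 35.7, 38.6 and 38.4 normalized counts (log2 fold change of -0.70 ± 0.16).

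The promoter of *Gucy1a2* is shown because this gene fell most. Its window is chr9:3532099-3532398 on the plus strand (RefSeq, GRCm38.p6), and it holds 1 copy of the core.
Gucy1a2: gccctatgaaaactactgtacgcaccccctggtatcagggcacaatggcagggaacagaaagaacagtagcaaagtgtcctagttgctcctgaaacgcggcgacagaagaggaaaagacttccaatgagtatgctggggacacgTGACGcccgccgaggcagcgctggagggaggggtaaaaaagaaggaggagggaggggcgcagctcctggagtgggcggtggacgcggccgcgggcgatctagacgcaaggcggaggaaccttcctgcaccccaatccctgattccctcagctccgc

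*Adcy5*, the gene of an adenylyl cyclase that Gi proteins inhibit, had 34.4, 41.1, 41.8 and 39.9 normalized counts in EV and 11.6, 11.9, 8.47 and 12.2 in KO MCECs. The KO libraries were all far below the EV libraries, with a log2 fold change of -1.83 ± 0.24 (edgeR adjusted p = 1.33e-08). Its level per length was low throughout, at 0.298 FPKM in EV and 0.0772 FPKM in KO MCECs. *Adcy8*, whose product responds to calcium, was lower by -1.24 from few reads and with overlapping groups. The better expressed *Adcy1*, also calcium-responsive, and *Adcy9* were lower by -0.51 ± 0.04 and -0.49 ± 0.08.

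*Adcy6*, per length the most abundant of the listed adenylyl cyclase genes, had 1529, 1686, 1635 and 1658 normalized counts in EV and 1881, 1745, 1728 and 1725 in KO MCECs. It was called higher by a log2 fold change of 0.12 (edgeR adjusted p = 0.00299), but not without EV replicate 1 or KO replicate 1 (adjusted p = 0.0214 and 0.0176) and not under scaling by totals, where the log2 fold change was 0.0016. Of the summed FPKM of the listed adenylyl cyclases it made up 54.5% ± 1.1 in EV and 65.4% ± 0.9 in KO MCECs, with every KO library above every EV library. The shares of *Adcy1* (29.9% ± 0.8 to 23.1% ± 1.0), *Adcy9* (13.6% ± 0.8 to 10.7% ± 0.8) and *Adcy5* (1.13% ± 0.07 to 0.350% ± 0.052) were lower without overlap.

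The genes named as phosphodiesterases were 8 lower and 2 higher. The PDE4 enzymes break down cAMP, and all 3 listed members were lower. *Pde4a* had 186, 191, 207 and 193 normalized counts in EV and 112, 98.8, 97.0 and 113 in KO MCECs. The groups did not overlap, and the log2 fold change was -0.89 ± 0.10 (edgeR adjusted p = 3.14e-10). *Pde4d*, at 0.351 FPKM in EV MCECs, was lower by -1.26 ± 0.27, and *Pde4b*, the most abundant of the 3, by -0.21 ± 0.05. *Pde4b* therefore made up a larger share of the family in KO (82.4% ± 1.1) than in EV MCECs (73.8% ± 1.2).

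*Pde5a*, which encodes a cGMP-specific enzyme, was lower by a log2 fold change of -0.55 ± 0.12. *Pde3b*, whose product is inhibited by cGMP, was lower by -0.18, and *Pde7a* by -0.24, a call lost without EV replicate 2 or 4 or KO replicate 1 (adjusted p between 0.0102 and 0.0218). *Pde6d*, the most abundant gene of the class per length at 30.5 FPKM in EV MCECs, had 748, 729, 775 and 741 normalized counts in EV and 585, 641, 568 and 603 in KO MCECs (log2 fold change of -0.32). It encodes a chaperone of prenylated proteins, and *Pde4dip* (-0.16) a centrosomal protein. *Pde12*, the gene of a mitochondrial RNA-degrading enzyme, had 407, 372, 373 and 367 normalized counts in EV and 485, 443, 460 and 516 in KO MCECs (log2 fold change of 0.33 ± 0.06). None of the higher phosphodiesterase genes was a cyclic nucleotide enzyme with more than a few reads, since the other, *Pde8a*, had 2, 3, 2 and 1 raw reads in EV and 7, 5, 12 and 6 in KO libraries.

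The PKA subunits again stood on both sides. *Prkar2a*, the RIIα regulatory subunit gene, had 1998, 2152, 1972 and 1960 normalized counts in EV and 3260, 3171, 3039 and 3320 in KO MCECs. *Prkar2b*, the RIIβ gene, had 144, 108, 117 and 108 against 60.0, 78.7, 91.3 and 67.5. These closely related subunits moved apart without overlap, with log2 fold changes of 0.66 ± 0.03 and -0.66 ± 0.13 (edgeR adjusted p = 6.78e-19 and 2.84e-05). *Prkar1a* was the most abundant of the listed regulatory subunit genes, at 216 FPKM in EV and 223 FPKM in KO MCECs. It had 14357, 13985, 14195 and 14517 against 16235, 15732, 16276 and 15643 normalized counts. Its log2 fold change of 0.16 was 0.05 under scaling by totals (adjusted p = 0.0781). Of the FPKM of the 3 regulatory genes, *Prkar2a* made up 10.9% ± 0.6 in EV and 14.8% ± 0.7 in KO MCECs, and *Prkar1a* 88.3% ± 0.6 and 84.8% ± 0.6. *Prkaca*, a catalytic subunit gene, had a log2 fold change of -0.19.

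**Figure D4:**
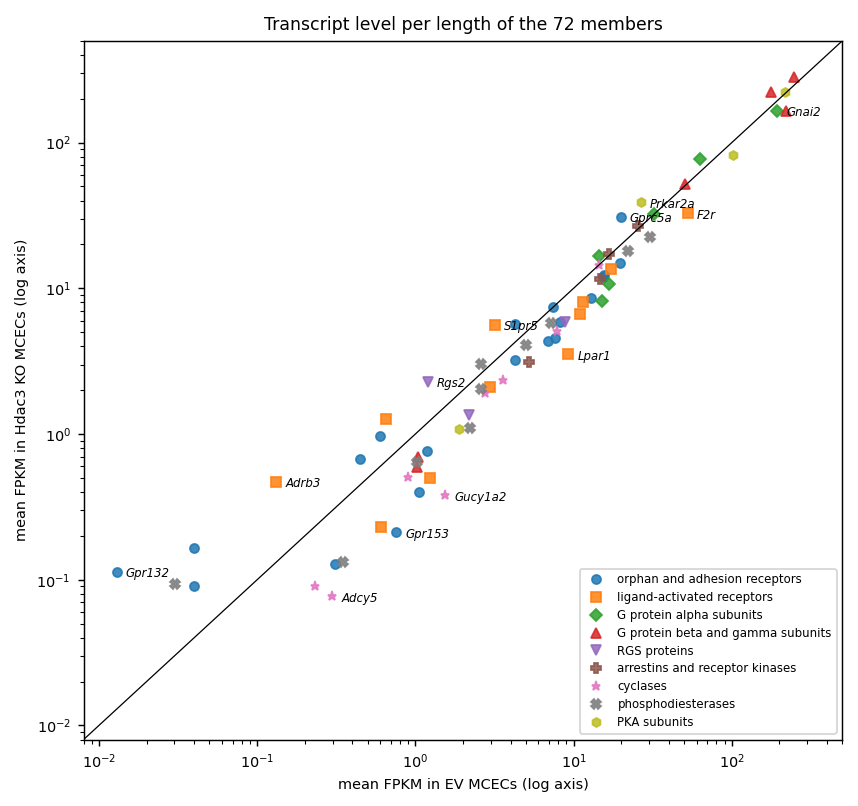
Mean FPKM in EV (x axis) and *Hdac3* KO MCECs (y axis), both on log axes, of the 72 members by role, with the line of equal levels. The members span from 0.013 FPKM for *Gpr132* in EV MCECs to 282 FPKM for *Gnb2l1* in KO MCECs, and the points farthest from the line lie at low levels.

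Some members were called from few reads or on narrow evidence. *Gpr132* had 2, 0, 0 and 0 raw reads in EV and 2, 4, 6 and 12 in KO libraries. Its fitted log2 fold change of 3.18 depends on the prior count of the fit, was 5.59 without EV replicate 1, and its call was lost without KO replicate 4 (adjusted p = 0.0109). *Gpr62* had 0, 2, 1 and 3 raw reads against 4, 8, 12 and 4, and *Gpr116* (now *Adgrf5*) 3, 2, 8 and 13 against 12, 19, 14 and 21. *Gpr15* had 18, 7, 16 and 14 raw reads against 23, 23, 29 and 32, overlapped between groups once normalized, and was not called under scaling by totals (adjusted p = 0.0148). At such levels counting error alone is large. Opposite-strand exons also cover 12.5% of the exonic bases of *Gpr15*, and, among better expressed members, 15.4% of *Gpr137*, 27.9% of *Gpr89* and 13.35% of *Gna12*.

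Leaving out 1 library ended further calls. The call of *Gpr62* was lost without EV replicate 1 or 3 or KO replicate 3 (adjusted p between 0.0118 and 0.0241), that of *Gpr116* without EV replicate 1 or 2 or KO replicate 4 (0.0130 to 0.0173), that of *Gpr15* without EV replicate 2 or 4 or KO replicate 4 (0.0169 to 0.0267) and that of *Pde8a* without EV replicate 3 or 4 or KO replicate 3 (0.0103 to 0.0271). *Gng2* was not called without EV replicate 3 or 4 or KO replicate 1, 3 or 4 (0.0102 to 0.0270). *Gpr89*, the Golgi pH regulator gene, became called without KO replicate 2 (adjusted p = 0.00572).

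Other genes of the same routes were taken from lists of known GPCRs, ligand-handling enzymes, effectors and targets. Of 44 other GPCRs and accessory proteins 8 were in the table, 3 lower and 5 higher. Genes of receptors for related peptides and their partners went in both directions, with log2 fold changes of -1.60 for *Ramp1* and 1.33 for *Calcrl*, whose products together form the CGRP receptor, and of -1.28 for the chemokine scavenger receptor gene *Ackr3*. *Hrh1*, the histamine H1 receptor gene, was higher by 0.93. Of 27 ligand and ligand-handling genes 9 were listed, 7 lower and 2 higher. *Ptgs2*, the inducible cyclooxygenase gene, was higher by 1.41 (317 against 841 normalized counts), and *Procr*, the protein C receptor gene, by 0.38. *Sgpl1*, the S1P lyase gene, was lower by -0.52, the S1P exporter gene *Spns2* by -0.45 and *Nt5e*, which encodes the enzyme that forms adenosine, by -0.53.

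Among effectors of cAMP and cGMP, 19 of 34 listed symbols (*Mrvi1* and *Irag1* name 1 gene) were in the table, 12 lower, 6 higher and 1 not called. The PKA anchor gene *Akap5* was lower by a log2 fold change of -1.87 (626 against 172 normalized counts), the PKA inhibitor genes *Pkia* and *Pkig* by -0.94 and -0.86, and the cAMP-binding Popeye genes *Bves* and *Popdc3* by -1.03 and -1.09. The anchor genes *Akap8* and *Akap1* were higher by 0.41 and 0.28. Downstream of Gq and G12/13, 21 of 32 genes were in the table, 15 lower and 6 higher. *Plcb4*, a phospholipase C gene, was lower by -1.30, the exchange factor gene *Kalrn* by -1.74 and the calcium channel gene *Itpr1* by -0.47, while *Rock2*, a kinase that acts after RhoA, was higher by 0.50. All 5 listed of 14 G protein modulators were lower, among them *Gpsm1* (-0.57) and *Gipc1* (-0.50).

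Known CREB target genes were split, with 5 lower, 5 higher and 1 not called among 11 listed of 17. This list holds 3 members, *Pde4b*, *Pde4d* and *Rgs2*. The immediate early genes went apart as well. *Egr1* was lower by a log2 fold change of -1.66 and *Fos* by -1.18, whereas *Nr4a1* was higher by 0.80, *Dusp1* by 0.66 and *Fosb* by 0.98, the last from few reads, and *Junb* was not called (adjusted p = 0.0280). Of the other targets, *Ppargc1a*, a coactivator gene, was lower by -1.96 and *Areg*, a growth factor gene with few reads, was called higher. The counts in these lists stand against the same background of 49.6% lower and 47.1% higher.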

How the data were processed

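The data were bulk RNA-Seq of MCECs, 4 libraries per group, with groups and replicate numbers from the sample titles. RNA was sequenced on an Illumina NextSeq500, and the authors used tophat2 and bowtie2 for alignment to mm10. The submitters' processing notes name CASAVA and DESeq 1.6.3. The gene counting program and its strand setting are not given in the sources used here. As deposited, the counts are whole reads assigned to each gene and not normalized. The authors derived the deposited FPKM from the count, the length of the gene and the library total. The deposited p-value and adjusted p-value columns of the authors' comparison were used only to learn the selection: all 8278 genes have an adjusted p-value under 0.05, out of 16243 genes tested, as recovered from those columns. Deposited fold changes were not used.

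Library totals were recovered from count, length and FPKM, and the listed genes held 84.3% to 85.9% of the reads. Totals were multiplied by TMM factors (edgeR 4.0.16, limma 3.58.1, R 4.3.3), and each count was divided by its library's size relative to the others to give a normalized count. The factors were computed on the 8278 listed genes, all selected as changed, whereas TMM assumes that most genes are unchanged. DESeq2 size factors came from the same genes and are not an independent check. The test was edgeR's quasi-likelihood F-test, p-values were adjusted by Benjamini and Hochberg's method over 8278 genes, and the cut-off was 0.01. The standard error is the log2 fold change divided by the square root of F. No gene was filtered out. A gene's group overlap is judged on normalized counts. On simulated counts of the 8278 genes for this comparison, edgeR recovered 90 of 100 genes changed by 0.5 and 94 of 100 changed by 1 on the log2 scale, with 1 false call. Only 200 genes were changed there, whereas 96.7% of all listed genes were called in the data. The simulation therefore gives no rate of false calls for these data. A ± value is the SD over the 4 libraries of a group for levels and shares, and the standard error for log2 fold changes. Reads carry no molecular identifiers.

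The members, role classes and gene lists were chosen with earlier results of these data known. Genes given with values in each library were the 12 lowest and 12 highest log2 fold changes among called members whose groups did not overlap and whose higher group averaged 30 or more normalized counts, the most abundant gene of each class by FPKM, and members whose call changed with the scaling. *Gnb2*, *S1pr2*, *Rgs3*, *Arrb1* and the members with few reads were added after their values were seen, as were the promoters printed and the 12 families of shares. Gene positions and exon overlaps come from the table and GENCODE M21 (GRCm38), and promoters from RefSeq (GRCm38.p6). Alternatives were DESeq2 1.42.0, other scalings, a replicate block, a count filter, another adjustment, fold cut-offs and leaving out each library. Exclusion of 10 members not known as parts of G protein signalling, and of 9 members with at least 10% exon overlap, was added after seeing the data. Some items are not reported here. The single-cell and microRNA data of the study were not analysed here.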

Additional observations from a re-analysis of the deposited data

Results flagged for a closer look

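In 11 of 144 sets of 4 libraries (each of the 72 members in each group), 1 library stood far from the other 3 by Dixon's ratio of its gap to the range (above the 95% critical value). Chance gives about 1 in 20, or 7.2 of 144. In normalized counts, *Gucy1a2* had 126 in EV replicate 1 against 161 to 167 in the other EV libraries (ratio 0.860). *Adcy5* had 8.47 in KO replicate 3 against 11.6 to 12.2 (0.835). *Adcy9* had 381 in EV replicate 2 against 318 to 326 (0.862), and *Adcy6* had 1881 in KO replicate 1 against 1725 to 1745 (0.870). *Ptger4* had 52.2 in EV replicate 2 against 38.7 to 40.3 (0.875). *F2r* had 3351 in EV replicate 1 against 3241 to 3257 (0.856). *Gpr133* had 26.1 in EV replicate 3 against 31.0 to 32.0 (0.831), and *Gpr85* had 267 in KO replicate 2 against 230 to 235 (0.869). *Gpr132* had 2.37 in EV replicate 1 and 0 in the other EV libraries (1.0). *Pde3b* had 561 in KO replicate 2 against 541 to 543 (0.876), and *Pde12* had 407 in EV replicate 1 against 367 to 373 (0.855). Apart from *Adcy6* and *Gpr132*, none of these members lost its call when that or any other library was left out.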

How the results depend on the processing

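Members called lower numbered 44 to 47 and called higher 17 to 24 over the alternatives of test, scaling, filter, adjustment and left-out library, against 47 and 24. With an absolute log2 fold change of at least 0.5, 24 were lower and 13 higher, and with at least 1, 10 and 7. Of all listed genes, 8.36% were lower and 4.43% higher by at least 1. Shares of all listed genes were not computed at 0.5 or under the alternatives, so those counts describe the members only. Leaving out each library gave 44 to 46 lower and 21 to 24 higher. DESeq2's Wald test gave 44 and 20. The median log2 fold change of the members was -0.409 under scaling by totals, -0.346 without the 10 members not known as parts of G protein signalling, and -0.305 to -0.258 when 1 library was left out, the latter without EV replicate 4. For single members, 955 values over the alternatives kept direction and side of the cut-off, 49 lost the call, 1 gained it and 0 reversed. The cause of lost calls was not tested. The replicate numbers were not taken as pairs: deviations of same-numbered libraries from their group means had a mean correlation of -0.0208 (-0.107 to 0.118) over 7187 genes, and the fit with the replicate block gave 47 lower and 24 higher. Members with few reads, and genes of these families outside the table, limit what can be said.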
